A study of Drosophila melanogaster with 24 samples.

Results

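The genes described here encode the cytosolic translation factors of Drosophila melanogaster, the proteins that start, extend and end protein synthesis on the ribosome. The family and the lists set beside it were chosen with earlier results of these data known. Its members were taken by symbol, as every gene in the count table whose FlyBase symbol starts with eIF (initiation), eEF (elongation) or eRF (release). This gave 54 of the 17698 genes in the table, of which 46 passed the filter on low counts that 8707 genes passed in all. The 8 below it were eIF3d2, eIF3f2, eIF4E3, eIF4E4, eIF4E5, eIF4E6, eIF4E7 and eIF4H2, and these were read as counts and not tested. RNA came from the fat body of larvae, the larval counterpart of liver and adipose tissue. In the tumour groups (genotype C855a-Gal4/UAS-scrib-RNAi) an epithelial Gal4 line drove RNA interference against the cell polarity gene scrib. Tumours then formed in the wing discs and the larvae did not pupate. In the control groups (C855a-Gal4/UAS-control-RNAi) the same line drove a control RNAi construct. Larvae with tumours were dissected 4, 5, 8 and 11 days after egg laying and controls 4 and 5 days after it, giving 6 groups of 4 libraries, each made from pooled fat bodies of 50 larvae. The labels give adipocytes as the cell type, and the driver was not directed at them. For days 8 and 11 no control library was used.

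Initiation brings the small ribosomal subunit, the initiator tRNA and the mRNA together. eIF2 carries the initiator tRNA and is recharged with GTP by eIF2B, the large eIF3 complex holds the small subunit, and eIF4E, eIF4G and the helicase eIF4A bind and open the capped end of the mRNA. During elongation eEF1A delivers aminoacyl-tRNAs, the eEF1B subunits recharge it, and eEF2 moves the ribosome along. eRF1 and eRF3 then recognise the stop codon and release the protein. In the fly, the fat body is known as a nutrient sensor in which TOR signalling adjusts translation, partly through Thor, the fly 4E-BP that binds eIF4E.

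Libraries held 16074877 to 23352151 counts. Levels are given as CPM, read counts scaled to the library size and TMM factors. Changes are log2 fold changes with their SE by the quasi-likelihood test of edgeR. A gene was called where the Benjamini-Hochberg adjusted p over all 8707 genes was under 0.05. Whether the pools of a group stem from separate cultures is not stated, and p-values then reflect the spread between pools alone, which may be technical. The 8 matched fat body markers took 41.7% to 44.9% of counts in tumour libraries of day 4 and 42.4% to 46.4% in controls of that day. At day 5 they took 29.4% to 38% in tumour libraries and 40.7% to 44.1% in controls. In tumour libraries of days 8 and 11 they took 13.5% to 20.7% and 8.35% to 11.2%. The markers did not move as 1. Lsp1beta held 2848017 to 4428522 counts in tumour libraries of day 5 and 316021 to 765007 in those of day 11. Lsp1alpha, Lsp1gamma and Fbp2 held fewer counts at day 11 too. In contrast, apolpp held 295002 to 380093 counts at day 5 and 404844 to 508617 at day 11. Fbp1 and Mtp held more at day 11 as well, and the counts of Lsp2 overlapped. Of the 8, 4 were called higher with tumours at day 5 and 1 lower, and at day 4, 2 were higher and 2 lower. The lower gene of day 5 was Fbp1 (log2 fold change -6.5). It held 18737 to 72854 counts in tumour libraries and 3853086 to 4929197 in controls. A few libraries stood apart by markers of other organs. Salivary gland transcripts (10 markers) reached 1509 CPM in control day 4 replicate 2 and, in control day 5 replicate 3, 1486 CPM, against at most 259.7 CPM in the other 22 libraries. Replicate 1 of tumour day 5 held 200.7 CPM of the 21 testis markers, against 2.456 to 10.96 CPM elsewhere. Replicate 3 of tumour days 4, 5 and 8 held 23, 64 and 62 counts of the wing disc gene rn and 26, 51 and 35 of wg. Control libraries held such reads too, with 27 counts of rn and 7 of wg in control day 4 replicate 2. Replicate 4 of control day 4 held 32 of rn, 6 of wg and 42 of the wing disc gene Dll. Gut markers were uneven in tumour and control libraries alike. They reached 394.6 and 266.9 CPM in replicates 1 and 2 of tumour day 5, 251.3 CPM in tumour day 8 replicate 1 and 293.3 CPM in tumour day 11 replicate 3, against 263.4 and 191.6 CPM in replicates 1 and 4 of control day 5 and at most 161.4 CPM in the other 18 libraries.

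Translation factor transcripts were most abundant in the fat body of tumour-bearing larvae at day 5. The summed level of the 54 genes was 36640 ± 2005 CPM in tumour larvae and 31610 ± 3204 CPM in controls at day 4 (SD, n = 4 each). At day 5 it was 49580 ± 3082 CPM in tumour larvae and 26980 ± 968.9 CPM in controls (SD, n = 4 each), so all tumour pools lay above all control pools. The sum was 36960 ± 2270 CPM at day 8 and 32290 ± 326 CPM at day 11 with tumours (SD, n = 4 each). More than any other gene, eEF1alpha1 made up this sum, and without it the sums at day 5 were 20700 ± 1190 CPM with tumours and 12150 ± 696.5 CPM in controls (SD, n = 4 each). As a share of all counts, without TMM scaling, the 54 genes took 2.65% at day 4, 4.78% at day 5, 5.01% at day 8 and 4.78% at day 11 in tumour larvae, against 2.54% and 2.39% in controls of days 4 and 5. The 2 scales therefore gave the same order of tumours over controls but differed on days 8 and 11, where the share stayed high and the TMM-scaled level was lower. In bulk samples, fewer cells of a type and less RNA per cell cannot be told apart.

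**Figure D1:**
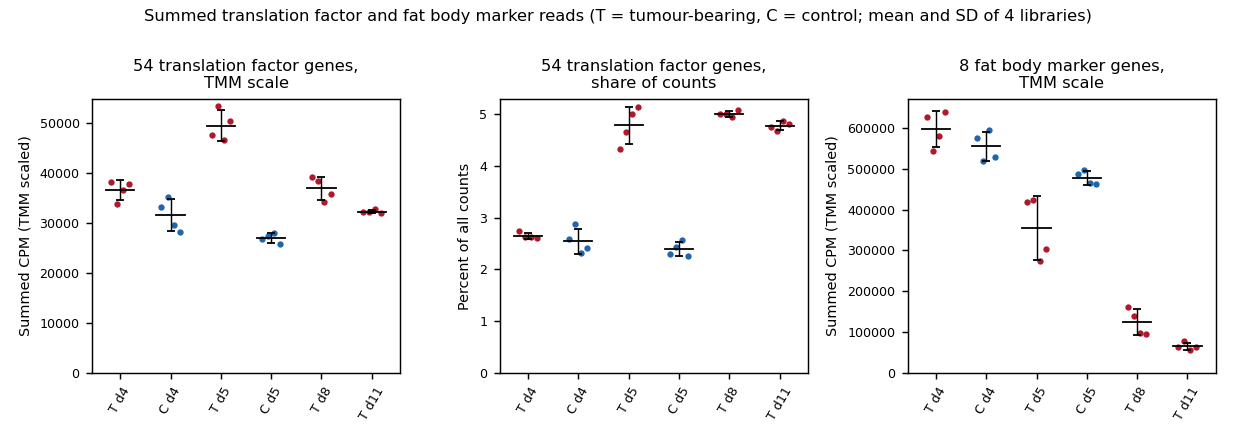
Summed level of the 54 translation factor genes on the TMM scale (left, CPM) and as a percent of all counts (middle), with the summed CPM of 8 fat body markers (right). Points are libraries, and lines and bars are the mean and SD of 4 libraries. The day 5 tumour libraries are highest on the TMM scale. The share of counts is near 5% in tumour libraries of days 5, 8 and 11, while the sum of the fat body markers, though not each marker, declines.

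At day 5, 24 of the 46 tested genes were called higher and 7 lower in tumour larvae than in controls, where 54.9% of all 8707 genes were called, 26.7% higher and 28.2% lower. At day 4, 13 were higher and 3 lower, where 25.2% of all genes were called, 14.6% higher and 10.5% lower. The median log2 fold change of the 46 was 0.41 at day 5 and 0.17 at day 4, beside 0.03 and 0.01 over all genes. The test of the difference between these tumour effects called 21 genes with a more positive effect at day 5 and 7 with a more negative one, where 28.8% of all genes were called, 12.1% more positive and 16.8% more negative. Scaling by library totals gave 24 more positive and 0 more negative. In 31 of the 46 genes the tumour and control libraries of day 5 did not overlap, and 29 of these were called. Such overlap was not counted over all 8707 genes, here or for the groups of factors below. These counts of non-overlap therefore describe the members alone, and whether they exceed those of other genes was not examined. The day 4 count was the least settled: without replicate 3 or 4 of control day 4 it was 8 or 7 genes, with only the day 4 groups in the model it was 2, and with scaling by library totals it was 5, of which 1 was higher.

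Between days 4 and 5 the controls and the tumour larvae took different courses. In controls of day 5, 30 of the 46 genes were lower than at day 4 and 1 was higher, where 55.0% of all genes were called, 29.2% lower and 25.8% higher. In tumour larvae of day 5, 18 were lower than at day 4 and 14 higher, where 44.0% of all genes were called, 24.5% lower and 19.6% higher. Scaling by library totals, which moved the median of all genes by 0.43, gave 10 lower and 22 higher in the tumour larvae. It gave 18 lower and 1 higher in the controls.

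**Figure D2:**
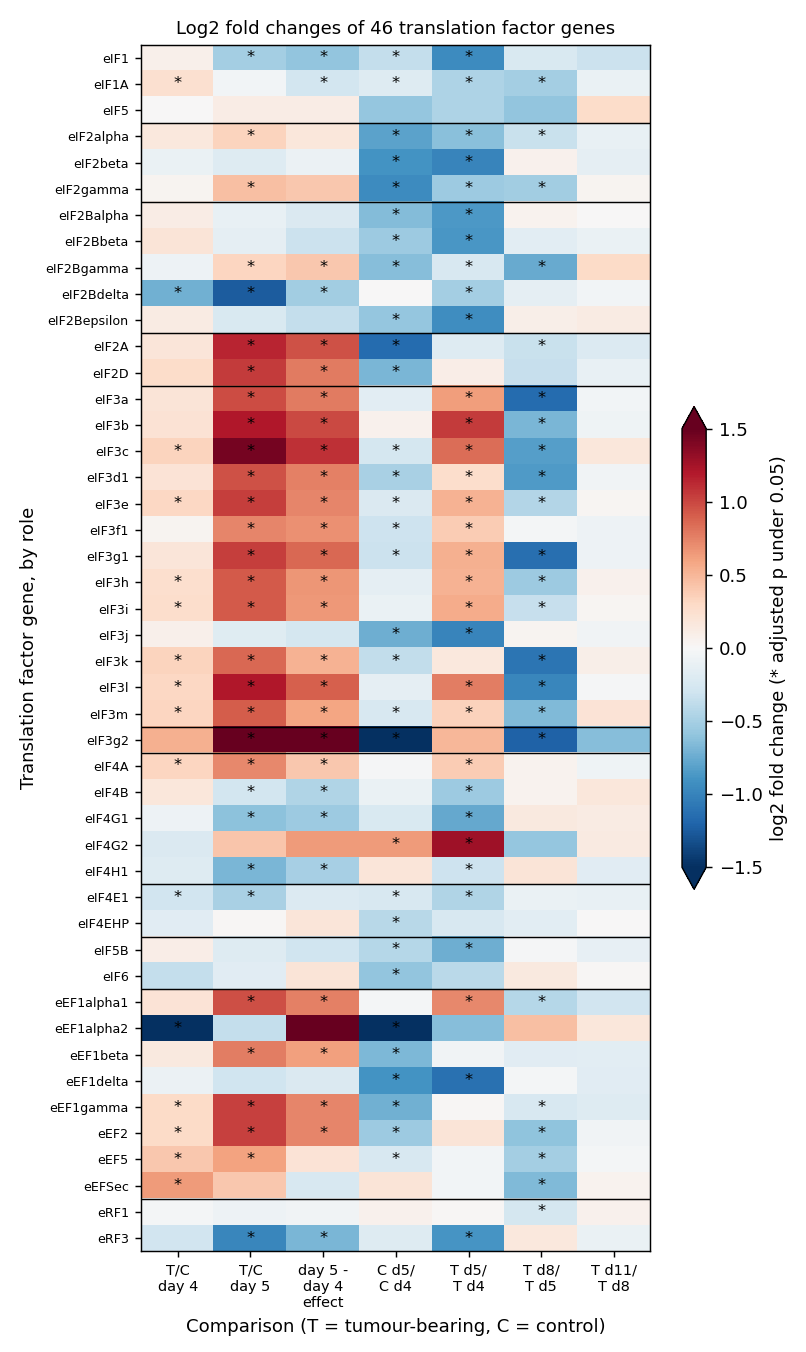
Log2 fold changes of the 46 tested translation factor genes (rows, grouped by role between the lines) in 7 comparisons (columns), where red is higher and blue lower in the group named first and a star marks an adjusted p under 0.05. The colour scale ends at 1.5 on either side. The eIF3 block apart from eIF3j, eIF2A, eIF2D and most elongation factors are red at day 5, while eIF2Bdelta, eRF3, eIF4G1 and eIF4H1 are blue.

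The eIF3 complex has 13 tested subunit genes in this set, and 12 of them were higher in tumour larvae than in controls at day 5, with log2 fold changes of 0.73 to 1.43. In each of these 12 every tumour library lay above every control library. eIF3c, a core subunit, had 571.8, 635.9, 716.3 and 756.2 CPM in tumour libraries of day 5, against 247.0, 232.7, 261.1 and 251.3 CPM in controls. This change of 1.43 ± 0.11 was the largest of the complex (adjusted p = 5.95e-10). eIF3b, the scaffold subunit that contacts eIF3a, eIF3g and eIF3i, had 824.1, 912.3, 957.9 and 1028 CPM with tumours and 423.6, 380.7, 406.5 and 402.5 CPM in controls (1.21 ± 0.11, adjusted p = 3.99e-09). The largest subunit, eIF3a, had 555.8, 639.2, 727.7 and 710.5 CPM with tumours against 341.7, 313.0, 361.3 and 322.8 CPM in controls (0.98 ± 0.10, adjusted p = 5.06e-08). eIF3l, a peripheral subunit, differed by 1.21 ± 0.09, with 281.1 ± 24.41 CPM in tumour larvae and 121.9 ± 3.82 CPM in controls (SD, n = 4 each). The smallest called difference was that of eIF3f1, at 185.1, 202.6, 201.7 and 210.5 CPM with tumours and 115.5, 118.7, 134.8 and 112.1 CPM in controls.

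The exception among the 13 was eIF3j, a loosely bound subunit that acts at the decoding site. It had 64.4, 66.0, 59.3 and 62.9 CPM in tumour libraries of day 5 and 62.0, 69.2, 88.8 and 67.0 CPM in controls, and these ranges overlapped (-0.18 ± 0.13, adjusted p = 0.228). The highest of these control values was that of replicate 3, the library with salivary gland reads.

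The eIF3 subunits also separated the courses of both genotypes. In tumour larvae, 11 of the 13 rose at day 5 relative to day 4, by 0.27 to 1.05 on the log2 scale, and eIF3j fell by 0.99 (adjusted p = 2.12e-06). eIF3b had the greatest rise, at 930.7 ± 85.57 CPM on day 5 and 448.2 ± 85.26 CPM on day 4 (SD, n = 4 each; 1.05 ± 0.11, adjusted p = 6.72e-08). In controls none of the 13 rose and 8 fell, among them eIF3j, which fell by 0.73, and eIF3d1, the subunit with a cap-binding surface in human cells, which fell by 0.49. The control falls of eIF3c, eIF3e and eIF3m ended under 15, 9 and 9 of 18 alternatives, and the rise of eIF3d1 in tumour larvae under 6 of 18. By library totals only 2 of the 8 falls in controls were called, while 12 of the 13 subunits rose in tumour larvae and eIF3j again fell. The tumour effect was more positive at day 5 than at day 4 in 12 of the 13, by 0.53 for eIF3k to 1.10 for eIF3c. At day 4 itself 7 of the 13 were higher with tumours, by 0.26 to 0.34 on the log2 scale, and none of these 7 was called when libraries were scaled by their totals.

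After day 5 the eIF3 transcripts declined. At day 8, 11 of the 13 were lower than at day 5 in tumour larvae, where 14.0% of all genes were lower. The largest fall was 1.16, for eIF3a, which had 295.6 ± 18.61 CPM at day 8 and 658.3 ± 78.34 CPM at day 5 (SD, n = 4 each; adjusted p = 4.77e-08). eIF3f1 had 202.7, 200.9, 191.4 and 187.5 CPM at day 8, overlapping its day 5 values, and was not called. Scaled by library totals, 6 of the 13 were lower at day 8 and 2, eIF3f1 and eIF3j, were higher. Relative to the median of all genes the complex was lower by that scale too, with a median difference of -0.71. Per kilobase of exon, the subunits spanned 46.3 (eIF3j) to 347.0 CPM (eIF3b) in tumour larvae of day 5 and 48.4 (eIF3k) to 150.4 CPM (eIF3b) in controls of day 5.

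**Figure D3:**
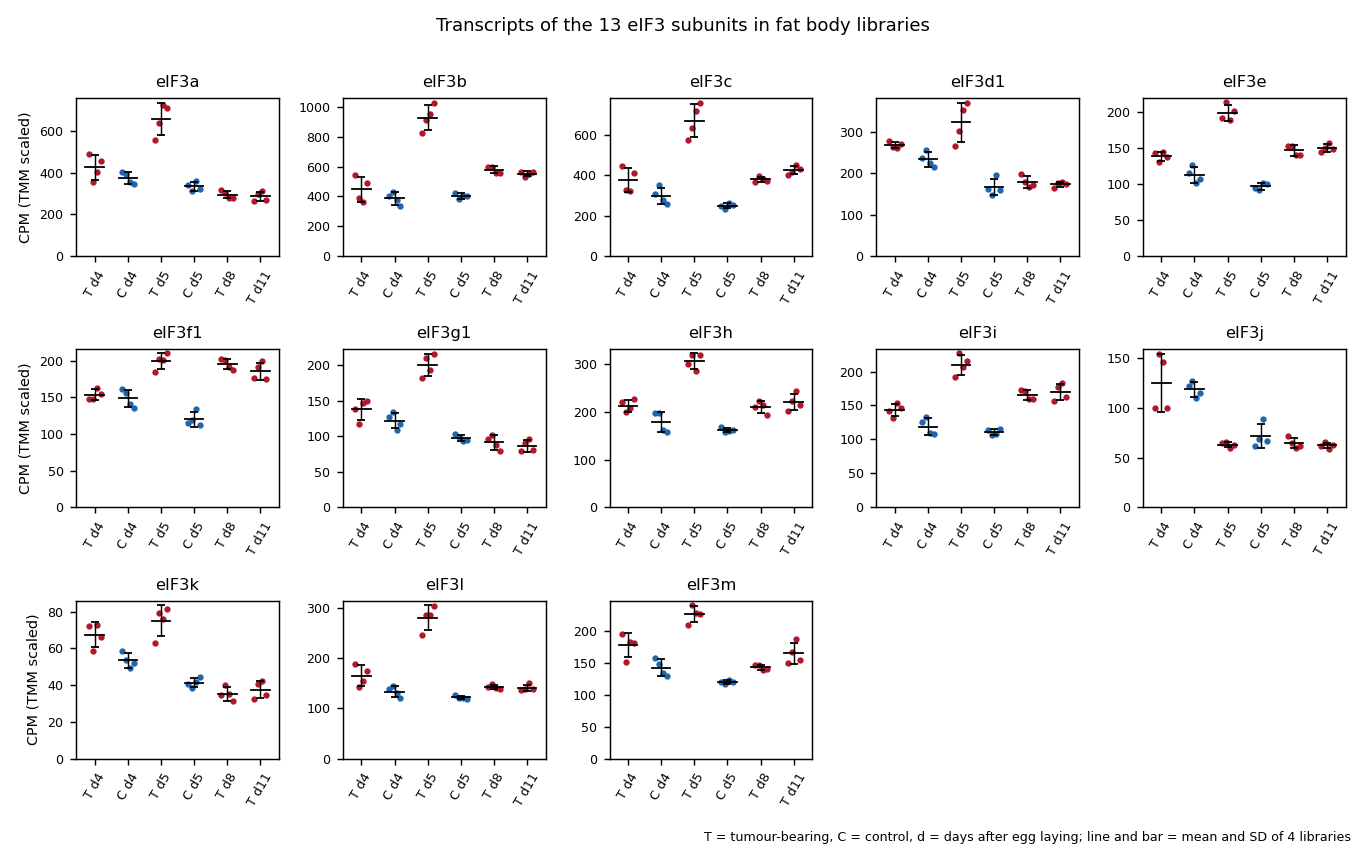
CPM of the 13 eIF3 subunits (panels) in the 6 groups, with tumour libraries in red and control libraries in blue. Points are libraries, and lines and bars are the mean and SD of 4 libraries. In 12 panels the day 5 tumour libraries lie above all day 5 control libraries, and in the eIF3j panel they do not.

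Factors of start codon recognition did not follow eIF3. eIF1, which guards the fidelity of start codon choice, had 78.7, 85.9, 73.8 and 82.1 CPM in tumour libraries of day 5 and 106.3, 110.3, 123.9 and 114.6 CPM in controls, with no overlap (-0.51 ± 0.11, adjusted p = 0.00068). It fell in both genotypes at day 5 relative to day 4, by 0.95 in tumour larvae and 0.36 in controls, the second of which was not called by library totals. eIF1A, its partner on the small subunit, was 236.9 ± 6.471 CPM with tumours and 243.9 ± 10.79 CPM in controls at day 5 (SD, n = 4 each), and was not called. At day 4 eIF1A was 0.24 ± 0.07 higher with tumours (adjusted p = 0.0145), a call that ended by library totals (0.08), with only the day 4 groups in the model and without replicate 3 or 4 of control day 4. In tumour larvae eIF1A fell by 0.47 at day 5 relative to day 4 and by 0.51 at day 8 relative to day 5, and neither fall was called by library totals.

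eIF5, the activator of the eIF2 GTPase, (chromosome X, 15987008 to 15991974, BDGP6) was read at only 0.15 to 1.30 CPM. Of its 3203 exon bases, 80.8% are shared on the same strand with CG46312, to which no read was assigned in any of the 24 libraries. Its level is therefore not interpretable from these counts and no comparison called it.

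eIF2, the carrier of the initiator tRNA, was lower at day 5 than at day 4 whether or not larvae bore tumours. All 3 subunits fell in tumour larvae, by 0.54 to 0.99 on the log2 scale, and in controls, by 0.80 to 0.94. eIF2beta had 121.9, 130.9, 95.0 and 118.7 CPM in tumour libraries of day 5, against 188.1, 272.4, 281.6 and 183.8 CPM at day 4. In controls it had 116.4, 122.6, 170.7 and 121.8 CPM at day 5 and 222.0, 263.7, 257.9 and 248.0 CPM at day 4. These values did not overlap between days in either genotype, and the falls were -0.99 ± 0.15 with tumours and -0.90 ± 0.15 in controls (adjusted p = 1.21e-05 and 2.62e-05). By library totals, the fall of eIF2beta alone was called in tumour larvae, and all 3 falls were called in controls.

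Between genotypes the eIF2 subunits differed less. At day 5 eIF2alpha, the subunit whose phosphorylation by PEK and Gcn2 restrains initiation, had 64.1, 76.0, 67.8 and 71.6 CPM with tumours and 51.0, 50.1, 69.8 and 50.2 CPM in controls. The groups overlapped through replicate 3 of the controls, and the difference of 0.34 ± 0.11 (adjusted p = 0.0114) was not called without replicates 1 and 2 of tumour day 5. eIF2gamma, the GTP-binding subunit, was 0.45 ± 0.14 higher (adjusted p = 0.00874). Neither was called with only the day 5 groups in the model or without the 4 day 5 libraries with the most gut reads. eIF2beta, at 116.7 ± 15.31 CPM with tumours and 132.9 ± 25.36 CPM in controls (SD, n = 4 each), was not called. The difference between the day 5 and day 4 tumour effects was called for none of the 3 by edgeR's quasi-likelihood test or by DESeq2, with 0 of 3 at an unadjusted p under 0.05 in edgeR, and for eIF2gamma when scaled by library totals (0.68) or without replicate 3 of control day 5. Of eIF2gamma's exons 15.98% are shared with Su(var)3-9, whose group means were 1.62 to 2.84 CPM, and of eIF2alpha's 12.64% with the antisense gene rngo, which was at 76.0 ± 2.90 CPM with tumours and 55.6 ± 4.62 CPM in controls at day 5 (SD, n = 4 each).

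The 5 subunits of eIF2B, the exchange factor that recharges eIF2, fell in tumour larvae at day 5 relative to day 4, by 0.24 to 0.93 on the log2 scale. By library totals 3 of the 5 fell, while eIF2Bdelta (-0.10) and eIF2Bgamma (0.18, the other direction) were not called. The call of eIF2Bgamma also ended under most other alternatives, 13 of 18 in all, among them RLE scaling, DESeq2 and leaving out any of replicates 1, 2 and 3 of tumour day 5 or replicates 2 and 3 of tumour day 4. In controls 4 of the 5 fell on both scales and eIF2Bdelta was not called. eIF2Bdelta, part of the regulatory subcomplex that senses phosphorylated eIF2, was the factor with the lowest tumour effect at day 5. It had 27.4, 29.9, 28.4 and 30.6 CPM in tumour libraries, against 69.7, 68.3, 72.9 and 65.4 CPM in controls (-1.25 ± 0.11, adjusted p = 6.27e-09). At day 4 it had 31.3, 49.8, 46.1 and 38.5 CPM with tumours and 73.1, 75.1, 63.9 and 62.1 CPM in controls (-0.73 ± 0.11, adjusted p = 6.33e-05). All tumour libraries thus lay below all control libraries on both days, and the tumour libraries of days 8 and 11 held 26.5 ± 2.052 and 25.7 ± 2.807 CPM (SD, n = 4 each). The other subunits were close between genotypes at day 5. eIF2Bgamma, of the catalytic subcomplex, was 0.33 ± 0.09 higher with tumours (adjusted p = 0.00439), but was not called without the 4 day 5 libraries with the most gut reads, and eIF2Balpha, eIF2Bbeta and eIF2Bepsilon were not called.

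eIF2A and eIF2D are alternative factors that can bring tRNA to the ribosome without eIF2, and both were higher with tumours at day 5. eIF2A (chromosome 3L, 21824740 to 21827856, BDGP6) had 631.8, 659.2, 551.8 and 601.0 CPM in tumour libraries and 250.1, 295.2, 306.0 and 256.6 CPM in controls (1.14 ± 0.09, adjusted p = 3.7e-10). eIF2D had 29.9, 28.7, 26.8 and 31.1 CPM in tumour libraries and 15.4, 15.1, 14.1 and 11.4 CPM in controls (1.05 ± 0.15, adjusted p = 2.96e-06). In controls of day 5 eIF2A fell by 1.15 (adjusted p = 6.09e-10) and eIF2D by 0.68 (adjusted p = 0.000507) relative to day 4. In tumour larvae eIF2A was 610.9 ± 46.02 CPM at day 5 and 699.4 ± 27.09 CPM at day 4 (SD, n = 4 each), and neither gene was called, though by library totals eIF2A (0.22) and eIF2D (0.52) were higher. The tumour effect was more positive at day 5 for eIF2A by 0.96 and for eIF2D by 0.78.

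The cap-binding machinery split. eIF4A, the helicase that unwinds the mRNA leader (chromosome 2L, 5981764 to 5985909, BDGP6), was higher with tumours at day 5, with 1669, 1931, 1577 and 1708 CPM against 1028, 1127, 1059 and 949.0 CPM in controls (0.73 ± 0.10, adjusted p = 1.75e-06). In tumour larvae it had 1791 ± 43.38 CPM on day 8 and 1710 ± 72.40 CPM on day 11 (SD, n = 4 each). eIF4G1, the scaffold that joins eIF4E, eIF4A and eIF3, was lower, with 329.0, 356.5, 303.5 and 347.2 CPM in tumour libraries and 445.8, 464.8, 665.0 and 475.6 CPM in controls of day 5. The groups did not overlap (-0.62 ± 0.12, adjusted p = 0.000221). eIF4E1, the main cap-binding protein, had 111.9, 119.7, 117.1 and 118.9 CPM in tumour libraries and 154.9, 141.7, 197.2 and 163.1 CPM in controls (-0.49 ± 0.10, adjusted p = 0.000297). The helicase cofactors eIF4H1 (-0.69 ± 0.11, adjusted p = 1.91e-05) and eIF4B (-0.28 ± 0.10, adjusted p = 0.0191) were lower too. For eIF4G1 and eIF4H1 replicate 3 of the controls was the highest, and both remained called without it, whereas the call of eIF4B ended without it, without replicate 3 of tumour day 5, by library totals and with only the day 5 groups in the model.

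In tumour larvae eIF4G1 fell at day 5 relative to day 4 by 0.77 (adjusted p = 3.05e-05) and eIF4E1 by 0.45 (adjusted p = 0.00093), while eIF4A rose by 0.39 (adjusted p = 0.00263). By library totals the fall of eIF4E1 was -0.04 and not called. In controls eIF4E1 also fell, by 0.24, a call that ended under RLE scaling, DESeq2 and library totals among others. The difference between its tumour effects at days 5 and 4 was not called on the TMM scale or under any of 27 alternatives. At day 4 eIF4A was 0.32 ± 0.10 higher with tumours (adjusted p = 0.0182) and eIF4E1 0.28 ± 0.10 lower (adjusted p = 0.0441). Both day 4 calls ended without replicate 3 or replicate 4 of control day 4, eIF4A at 0.28 and 0.24 and eIF4E1 at -0.23 and -0.26. They also ended with only the day 4 groups in the model and without replicate 4 of tumour day 4. The eIF4A call further ended by library totals. That of eIF4E1 further ended with no low-count filter, with the replicate number as a block, and without replicate 1 or 3 of tumour day 4 or replicate 1 of control day 4. eIF4EHP, a cap-binding protein that represses translation, was called on the TMM scale in 1 comparison, control day 5 against day 4, where it fell by 0.42 (adjusted p = 0.00203), and not called there by library totals.

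eIF5B joins the ribosomal subunits and eIF6 keeps the large subunit apart. Neither was called between genotypes on either day. eIF5B was 113.5 ± 2.348 CPM with tumours and 129.9 ± 10.59 CPM in controls at day 5 (SD, n = 4 each). Its libraries of that day did not overlap between genotypes (edgeR's quasi-likelihood test, adjusted p = 0.0752). It fell at day 5 relative to day 4 by 0.73 in tumour larvae (adjusted p = 1.39e-06) and by 0.43 in controls (adjusted p = 0.000398). eIF6 was 9.39 ± 1.06 CPM with tumours and 10.5 ± 3.13 CPM in controls at day 5 (SD, n = 4 each). In controls it was called lower at day 5 than at day 4, by 0.59. That call ended under RLE scaling, by library totals, with the replicate number as a block and under other alternatives.

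Elongation factors were higher with tumours at day 5 in 5 of 8 genes. eEF1alpha1, the main eEF1A and the most abundant transcript of the set, had 28049, 31350, 26792 and 29317 CPM in tumour libraries of day 5 and 14844, 15637, 14808 and 14018 CPM in controls (0.96 ± 0.09, adjusted p = 7.99e-09). eEF2 had 6820, 7777, 6876 and 7493 CPM with tumours and 3656, 3358, 3749 and 3511 CPM in controls (1.02 ± 0.08, adjusted p = 4.86e-10). No tumour library of either gene overlapped a control library. eEF1gamma, of the exchange complex eEF1B, was 1.02 ± 0.08 higher, and eEF1beta, its partner with exchange activity, 0.77 ± 0.10 higher. eEF5, which carries hypusine and helps the ribosome past stalling residues, was 0.61 ± 0.08 higher at day 5 and 0.40 ± 0.08 higher at day 4 (adjusted p = 1.7e-06 and 0.000864). At day 4 eEF5 had 1376, 1270, 1547 and 1276 CPM with tumours and 1099, 1056, 991.9 and 985.4 CPM in controls, without overlap. At day 4 eEF2 (0.28 ± 0.08, adjusted p = 0.00939) and eEF1gamma (0.29 ± 0.08, adjusted p = 0.0141) were higher as well, and neither was called by library totals or with only the day 4 groups in the model.

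The third subunit of the exchange complex, eEF1delta, was not called between genotypes, at 170.9 ± 20.75 CPM with tumours and 210.9 ± 86.77 CPM in controls of day 5 (SD, n = 4 each). Its control mean was raised by replicate 3, at 340.0 CPM beside 154.4 to 182.0 CPM in the other 3 libraries. eEF1delta fell at day 5 relative to day 4 in tumour larvae by 1.11 (adjusted p = 6.46e-05) and in controls by 0.89 (adjusted p = 0.000452). In tumour larvae eEF1beta and eEF1gamma were not called over that day, and by library totals both were higher (0.35 and 0.43). eEFSec, the elongation factor for selenocysteine, was read at 2.3 to 5.9 CPM and was higher with tumours at day 4 (0.64 ± 0.18, adjusted p = 0.0122), though not by library totals.

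eEF1alpha1 rose at day 5 relative to day 4 in tumour larvae by 0.72 ± 0.09 (adjusted p = 1e-06), while in controls it was 14827 ± 661.2 CPM at day 5 and 15164 ± 1790 CPM at day 4 (SD, n = 4 each). In tumour larvae eEF2 was 7242 ± 469.7 CPM at day 5 and 6350 ± 196.0 CPM at day 4 (SD, n = 4 each; adjusted p = 0.0521), and 7 of 18 alternatives called it higher. In controls eEF2 fell by 0.55 ± 0.08 (adjusted p = 4.72e-06). By library totals it rose by 0.61 in tumour larvae and fell by 0.41 in controls, and both were called. At day 8, eEF1alpha1 fell by 0.42, eEF2 by 0.60 and eEF5 by 0.51 relative to day 5 in tumour larvae, but by library totals these were 0.07, -0.12 and -0.02, none called.

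**Figure D4:**
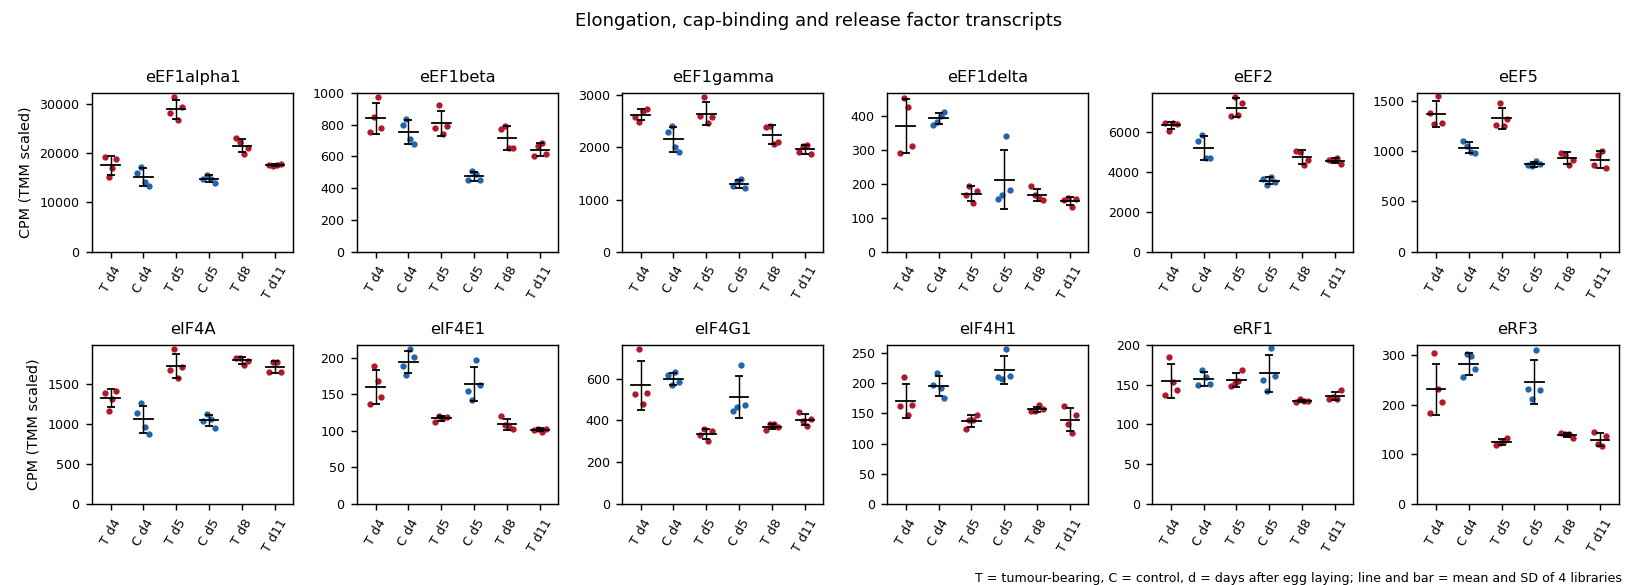
CPM of elongation factors (eEF), cap-binding factors (eIF4) and release factors (eRF) in the 6 groups, with tumour libraries in red and control libraries in blue. Points are libraries, and lines and bars are the mean and SD of 4 libraries. At day 5 the tumour libraries lie above the controls for eEF1alpha1, eEF1beta, eEF1gamma, eEF2, eEF5 and eIF4A, and below them for eIF4E1, eIF4G1, eIF4H1 and eRF3.

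The release factors differed from each other. eRF3, the GTPase of termination (chromosome 2L, 12434452 to 12441279, BDGP6), had 118.1, 122.9, 127.5 and 132.9 CPM in tumour libraries of day 5 and 231.3, 212.3, 311.5 and 230.6 CPM in controls (-0.98 ± 0.13, adjusted p = 1.54e-06). It fell at day 5 relative to day 4 by 0.88 in tumour larvae (adjusted p = 9.65e-06) and was not called in controls, and the difference between the tumour effects was -0.69 ± 0.18 (adjusted p = 0.00674). By library totals that difference was -0.41 and not called. eRF1, which reads the stop codon, was 155.8 ± 8.61 CPM with tumours and 164.1 ± 23.11 CPM in controls at day 5 (SD, n = 4 each) and was not called. At day 8 eRF1 was 129.8 ± 1.426 CPM and at day 5 155.8 ± 8.61 CPM in tumour larvae (SD, n = 4 each), a fall of 0.26 on the TMM scale that was a difference of 0.22, not called, by library totals and ended under 11 of 18 alternatives.

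Tumour larvae of day 8 had 23 of the 46 genes lower than at day 5 and 0 higher, where 26.1% of all genes were called, 14.0% lower and 12.0% higher. Of the 23, 11 were eIF3 subunits and 5 were elongation factors, and the others were eIF3g2, eIF2alpha, eIF2gamma, eIF2A, eIF2Bgamma, eIF1A and eRF1. None of the eIF4 genes, eIF5B or eIF6 was called. This split depended on the scaling, since library totals gave 17 higher and 6 lower, and all 6 were eIF3 subunits. They also moved the median of all genes by 0.50, and relative to it the 46 genes had a median of -0.34, beside -0.33 on the TMM scale. Over this step 5 of the 8 fat body markers fell and 1 rose, and 5 of the 7 tested haemocyte markers rose and 1 fell, with 262.5 to 396.2 CPM of the 8 haemocyte markers at day 8 and 181.5 to 363.0 CPM at day 5, and none of these 8 was at 0 in all libraries of a group. Their part in the result was not tested.

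Between days 8 and 11 no translation factor was called in tumour larvae (edgeR's quasi-likelihood test), with 6 of 46 at an unadjusted p under 0.05 and 2 called by DESeq2, where 3.34% of all genes were called, 1.72% higher and 1.62% lower. The lowest adjusted p was 0.074, for eEF1alpha1, at 17589 ± 190.2 CPM on day 11 and 21536 ± 1409 CPM on day 8 (SD, n = 4 each). With only these groups in the model eEF1alpha1, eIF1 and eIF2Bgamma were called.

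Over the 6 groups, the mean level was highest in tumour larvae of day 5 for 18 of the 46 genes, of day 4 for 14 and of day 8 for 1, and in controls of day 4 for 10 and of day 5 for 3. It was lowest in controls of day 5 for 17 genes and in tumour larvae of day 11 for 12. At day 5, other cell types' markers also differed between the genotypes. The 8 haemocyte markers summed to 181.5 to 363.0 CPM with tumours and 55.5 to 108.3 CPM in controls, with 5 of the 7 tested called higher and none at 0 in all libraries of a group. The 8 wing disc markers summed to 88.3 to 127.9 CPM with tumours and 81.9 to 104.8 CPM in controls, with none of 6 called and wg at 0 in all control libraries. Most of this sum was ap, with 1249 to 2088 counts in tumour libraries and 1306 to 1593 in controls. Replicate 3 of tumour day 5 held 64 counts of rn, 51 of wg, 46 of vg and 22 of nub. These 4 genes had 0 to 2 counts in the other tumour libraries of day 5 and 0 to 9 in controls. The 9 muscle markers summed to 23.8 to 210.8 CPM with tumours and 19.8 to 37.1 CPM in controls, with 3 of 8 called higher and TpnC41C at 0 in all control libraries. Their part in the translation factor results was not tested. Without replicates 1 and 2 of tumour day 5, which held the most gut reads of their group, 30 of the 31 day 5 calls remained, and 28 remained when replicates 1 and 4 of control day 5 were left out as well. Without the control libraries with salivary gland reads 30 did, and without replicate 3 of tumour day 5 also 30.

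Some translation factors have paralogs in the fly, such as eIF4E3, that are known for a role in the testis. The 8 genes under the filter held 921 counts in replicate 1 of tumour day 5 and 0 to 26 counts in each other library. Of the 921, eIF4H2 held 283, eIF4E3 204, eIF4E5 122, eIF4E4 106, eIF3d2 100, eIF3f2 54, eIF4E7 43 and eIF4E6 9. This is the library with testis marker reads, among them 1089 counts of betaTub85D, a sperm tubulin, and 600 of Mst98Ca. Summed over 4 libraries, the 8 genes had 15 counts in tumour larvae and 6 in controls at day 4, and 5 in controls at day 5. In tumour larvae they had 938 at day 5, 40 at day 8 and 31 at day 11.

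eIF3g2, a paralog of the eIF3g subunit, passed the filter and was the gene with the highest fold at day 5. It had 5.37, 3.16, 2.54 and 2.73 CPM in tumour libraries and 0.79, 0.21, 0.17 and 0.77 CPM in controls (2.81 ± 0.45, adjusted p = 1.48e-05). All 4 tumour libraries lay above the controls. The testis markers summed to 200.7, 7.385, 9.177 and 4.917 CPM in these tumour libraries and to 6.299 to 9.001 CPM in controls, and their part in the values of eIF3g2 was not tested. In controls eIF3g2 fell by 1.79 at day 5 relative to day 4 (adjusted p = 0.00179), with 32 counts over the 4 libraries of day 5 and 94 over those of day 4. eIF4G2, the eIF4G of male germ cells in flies, had 84.3 CPM in replicate 1 of tumour day 5 and 35.7, 39.2 and 48.0 CPM in the other 3, against 42.2, 41.6, 30.7 and 41.5 CPM in controls, and was not called between genotypes. It rose at day 5 relative to day 4 in tumour larvae by 1.27 ± 0.23 (adjusted p = 0.000136) and in controls by 0.64 ± 0.23 (adjusted p = 0.0242), the second of which ended without replicate 2 or 4 of control day 4 or replicate 1 or 4 of control day 5. eEF1alpha2, the second eEF1A, stood at 24.6 CPM in control day 4 replicate 4, while the other 23 libraries held 0.22 to 1.12 CPM. Its calls at day 4 (-3.09 ± 0.85) and over control days (-3.37 ± 0.86) rested on that library, and without it they were -0.28 and -0.56, with adjusted p of 0.747 and 0.338.

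**Figure D5:**
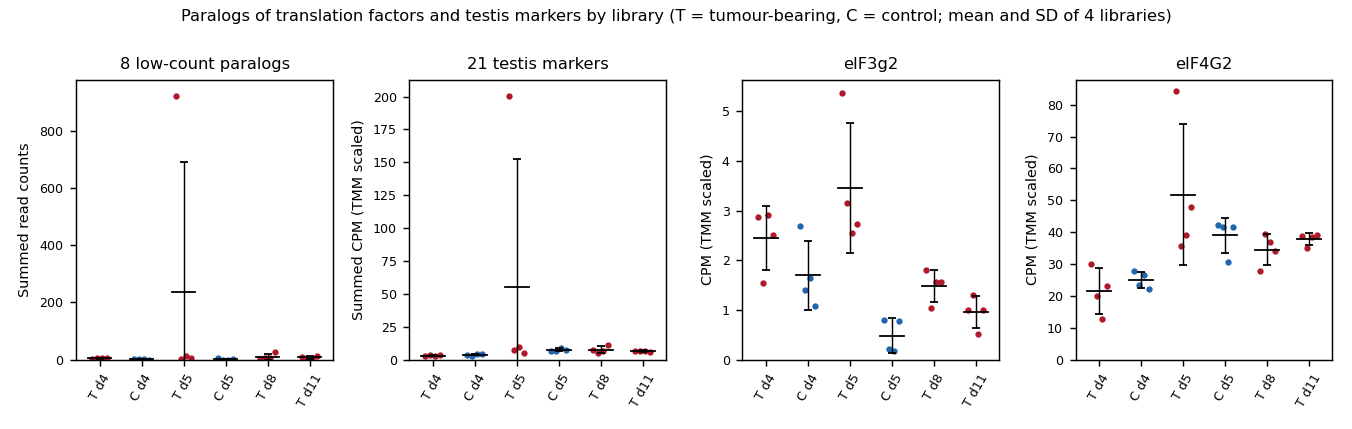
Summed read counts of the 8 translation factor paralogs under the low-count filter, summed CPM of 21 testis markers, and CPM of eIF3g2 and eIF4G2, by library (points) with the mean and SD of 4 libraries. A single library, replicate 1 of tumour day 5, holds 921 of the paralog counts and 200.7 CPM of testis markers, while eIF3g2 is higher in all 4 tumour libraries of day 5.

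Genes that regulate these factors were read beside them. Of 28 tested translation regulators, 14 were higher and 4 lower with tumours at day 5, which is 64.3% called beside 54.9% of all genes. At day 4, 11 were higher and 2 lower, which is 46.4% called beside 25.2% of all genes. Lk6, the kinase of eIF4E, had 832.2, 890.9, 1001 and 1114 CPM in tumour libraries of day 5 and 244.9, 262.4, 184.5 and 211.2 CPM in controls (2.09 ± 0.17, adjusted p = 1.38e-09). larp, which binds mRNAs of the translation machinery, was 1.97 ± 0.20 higher, at 336.0 ± 16.70 CPM with tumours and 85.7 ± 23.60 CPM in controls (SD, n = 4 each). Dph1, which takes part in the diphthamide modification of eEF2, was 1.78 ± 0.27 higher (adjusted p = 1.02e-05). NAT1, an eIF4G relative without the eIF4E-binding part, was lower, with 242.9, 258.6, 379.2 and 343.1 CPM in tumour libraries and 1056, 853.0, 981.8 and 1035 CPM in controls (-1.68 ± 0.13, adjusted p = 8.43e-10). In controls NAT1 had risen by 1.54 at day 5 relative to day 4 (adjusted p = 4.81e-09).

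Thor, the inhibitor of eIF4E1, reversed its tumour effect between days. At day 5 it had 388.6, 417.7, 453.9 and 424.4 CPM in tumour libraries and 1153, 1033, 868.3 and 1134 CPM in controls, and at day 4 280.2, 110.6, 326.6 and 340.3 CPM in tumour libraries and 150.5, 160.9, 133.8 and 62.6 CPM in controls. The tumour effect was thus -1.31 ± 0.27 at day 5 and 1.06 ± 0.27 at day 4, a difference of -2.37 ± 0.38 (adjusted p = 6.16e-05). The day 4 libraries overlapped through replicate 2 of the tumour group, and that call ended with only the day 4 groups in the model. Thor and eIF4E1 were thus both lower with tumours at day 5.

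The factors of mitochondrial translation, which work on mitochondrial ribosomes, were also counted. Of 9 tested, 3 were higher and 1 lower with tumours at day 5, which is 44.4% called and below the 54.9% of all genes. mEFTu2 was 0.80 ± 0.09 higher, at 23.6 ± 1.873 CPM with tumours and 13.6 ± 0.671 CPM in controls (SD, n = 4 each), and mRRF1, a ribosome recycling factor, was 0.70 ± 0.11 lower, at 3.61 ± 0.456 CPM with tumours and 5.89 ± 0.344 CPM in controls (SD, n = 4 each). Relative to day 4, 8 of the 9 fell at day 5 in tumour larvae and 6 in controls, where 24.5% and 29.2% of all genes were lower, and none rose in either.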

How the data were processed

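The authors deposited whole-number read counts per gene and library, without normalization, for 17698 genes in 24 fat body libraries. STAR 2.5.4a and BDGP6 are named per the submitters' processing notes. For the counter, the annotation release and strandedness, nothing is given in the sources used here. How reads of paralogs and of overlapping or antisense genes were divided is therefore unknown. Symbols were matched by identifier for 17560 genes, and coordinates come from the BDGP6.54 annotation. Depth was 16074877 to 23352151 counts per library.

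Genes were filtered with filterByExpr over the 6 groups (8707 remained), scaled by TMM and tested with edgeR 4.0.16 (robust quasi-likelihood, 1 mean per group, all 24 libraries; limma 3.58.1, R 4.3.3). P-values were adjusted over 8707 genes in each of 7 comparisons, and the SE is the log2 fold change over the square root of F. The fit was tested on simulated data with as many raised as lowered genes, which does not probe shifts in library composition. Alternatives were RLE scaling, DESeq2 1.42.0, no filter, TMM computed with the 20 most abundant genes left out, the replicate number as a block, no robust option, only the groups compared and each library left out in turn. Added after the data were seen were scaling by library totals and leaving out libraries with gut, testis or salivary gland reads. Named genes were the 6 highest and 6 lowest called members of a comparison, 13 factors and Thor in every case, and up to 4 called genes of the regulator and mitochondrial lists. Others were named to account for each role. The members and lists were chosen with earlier results of these data known. Tables were drawn with Python 3.11.15 and matplotlib 3.10.9. Promoter and protein sequences were not used here.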

Additional observations from a re-analysis of the deposited data

Results flagged for a closer look

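In 13 of 204 groups of 4 libraries, 1 library stood far from the other 3, where chance gives about 5% of groups. Of these, 6 were control day 5 replicate 3, a library with salivary gland reads: eEF1delta at 340 CPM (others 154.4 to 182), eIF2alpha at 69.76 (50.12 to 51.01), eIF2beta at 170.7 (116.4 to 122.6), eIF4G1 at 665 (445.8 to 475.6) and eIF4H1 at 256.4 (207.2 to 211.5) were high, and in the same library eIF4G2 was low at 30.66 CPM (41.51 to 42.23). In control day 4, eEF1alpha2 was 24.61 CPM in replicate 4 (others 0.928 to 1.07) and eIF2Bepsilon 41.04 CPM in replicate 2 (26.21 to 27.22), the other library with salivary gland reads. In tumour larvae of day 11, eIF2alpha was 55.95 CPM (49.19 to 50.21) and eIF2Bepsilon 18.75 CPM (20.56 to 20.84) in replicate 2, and eIF3l was 150.4 CPM (136.9 to 139) in replicate 3. eIF2D was 27.24 CPM in tumour day 8 replicate 1 (20.89 to 21.83) and eIF3l 127.5 CPM in control day 5 replicate 1 (119.2 to 120.4). The part of salivary gland reads in these values was not tested.

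The tumour effect differed between day 5 and day 4 in 28 factors by edgeR's test of the difference. It was more positive at day 5 on the log2 scale for eIF3a (0.78), eIF3b (0.99), eIF3c (1.10), eIF3d1 (0.76), eIF3e (0.73), eIF3f1 (0.69), eIF3g1 (0.86), eIF3h (0.66), eIF3i (0.65), eIF3k (0.53), eIF3l (0.90), eIF3m (0.59) and eIF3g2 (2.28). It was also more positive for eIF2A (0.96), eIF2D (0.78), eIF2Bgamma (0.40), eIF4A (0.40), eEF1alpha1 (0.75), eEF1beta (0.61), eEF1gamma (0.74) and eEF2 (0.74). It was more negative for eIF1 (-0.59), eIF1A (-0.28), eIF2Bdelta (-0.52), eIF4B (-0.45), eIF4G1 (-0.54), eIF4H1 (-0.50) and eRF3 (-0.69), none of which was called by library totals, where eIF1A turned to 0.002. Leaving out 1 library, or other settings, ended the calls of eIF1A under 13 of 27 alternatives, eIF4A under 11, eIF2Bgamma under 7 and eIF4G1 under 6.

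The 8 factors under the low-count filter held 921 counts in tumour day 5 replicate 1, while no control library held more than 4. This is the library with testis marker reads, and the part of those reads was not tested.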

How the results depend on the processing

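At day 5, 28 to 32 factors were called between tumour larvae and controls under the alternatives run, 30 to 32 with 1 library left out, except that 36 were called with no low-count filter, where factors below it were tested as well. The day 4 count of 16 was 2 with only the groups compared, 5 by library totals, and 7 to 20 with 1 library left out (7 without control day 4 replicate 4, 20 without tumour day 4 replicate 2). With 1 library left out, the difference between days gave 25 to 30 calls, control day 5 against day 4 25 to 32, tumour day 5 against day 4 29 to 34, day 8 against day 5 19 to 25 and day 11 against day 8 0 to 0. Library totals gave 19 calls in controls between days and 1 between days 11 and 8, where DESeq2 gave 2 and only the groups compared gave 3. Between days 8 and 5 of tumour larvae, library totals kept 6 of the 23 calls with their direction, called eEF1gamma the other way (0.25) and turned 6 to no call, eIF2alpha (0.16), eIF2A (0.16), eIF3e (0.05), eIF3i (0.15), eEF1alpha1 (0.067) and eRF1 (0.22), and turned the regulator list's RpS6 (0.066). Elsewhere they turned eIF1A (0.002) for the difference between days and eIF2Bgamma (0.18) and eIF4H1 (0.10) in tumour larvae of day 5 against day 4; this scaling by its construction does not adjust for the composition of the libraries. For named genes that edgeR called on the TMM scale, 2265 values under the alternatives kept direction and call, 191 kept direction and lost the call, and 4 turned. Named genes not called there are outside this tally. Some of them gained calls, such as eEF2 in tumour larvae of day 5 against day 4 under 7 of 18 alternatives. Same-numbered libraries deviated together in some pairs and not in others. The correlation was 0.512 for replicate 3 of tumour days 5 and 4 and -0.3 for replicate 4 of tumour and control day 5. Whether the numbers pair the samples is not settled by this. With a replicate block the counts were 14 at day 4, 31 at day 5, 28 for the difference, 28 in controls between days, and 32, 23 and 0 over the tumour steps. A planned description of promoter sequences was not run. The 8 factors under the filter and eIF5 were read at levels too low for a comparison, and most exon bases of eIF5 are shared with CG46312.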
